A study of Mus musculus with 20 samples.

Results

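The 14-3-3 genes encode the adaptor proteins that hold phosphorylated HDAC4 in the cytoplasm. They were followed here in the brains of neonates with and without Hdac4. The 7 genes are Ywhab, Ywhae, Ywhag, Ywhah, Ywhaq, Ywhaz and Sfn. Every probe set (the group of short probes whose signals are summarised as 1 value per array) that the array annotation assigns to 1 of these symbols was taken, whatever its signal. This gave 31 of the 45037 probe sets tested: 8 for Ywhaq, 7 for Ywhaz, 6 for Ywhab, 4 each for Ywhae and Ywhag, and 1 each for Ywhah and Sfn. Of the 31, 28 lay above the median signal of their array in at least 10 of the 20 arrays, and the single Sfn probe set was among the 3 that did not.

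RNA of whole brain at postnatal day 3 was measured on 20 Affymetrix arrays, 10 from wild type (WT) and 10 from Hdac4KO pups. Both genotypes were on the B6CBAF1/OlaHsd background, were untreated and, by the labels, held 5 males and 5 females. The Hdac4KO pups were homozygotes from heterozygote intercrosses, the knock-out is present in every tissue, and the colony was kept by repeated outcrossing to a hybrid strain, so pups need not share 1 genetic background. By the study's methods RNA came from 5 brains of each sex and genotype, so the 10 arrays of a genotype stand for separate brains. All signals are on a log2 scale, on which a difference of 1 is a doubling, and "rose" or "fell" is used for an adjusted p under 0.05.

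Hdac4 fell at each of its 3 probe sets in the Hdac4KO arrays. At the brightest, the WT arrays ran from 7.54 to 8.08 (median 7.96) and the Hdac4KO arrays from 6.02 to 7.43 (median 6.50), and limma gave a difference of −1.39 (SE 0.12, adjusted p = 6.28e-07). The other probe sets fell by 1.19 and 0.46 on the log2 scale (adjusted p = 9.48e-07 and 0.0198 by limma). In WT replicates 5 and 9 both Xist and the Y-linked Kdm5d went against the sex label. Hdac4KO replicate 10, labelled male, had an Xist signal of 12.27, as females had, together with a Kdm5d signal of 6.88, between the 2.82 to 3.15 of arrays with high Xist and the 7.81 to 8.20 of those with low Xist. These 3 arrays are called below the arrays against their sex label. Hdac4KO replicate 10 and WT replicate 8 also had Hdac4 signals between the genotypes. At its brightest probe set Hdac4 fell by 1.53 on the log2 scale without those 2 arrays and by 1.46 without the 3 (adjusted p = 2.56e-11 and 1.26e-08 by limma). The 2 arrays were picked by these same Hdac4 signals, and Hdac4KO replicate 10 is also among the 3. The larger fall without them follows from that choice and is not separate evidence. Neuron markers were bright in every brain: all 6 of Tubb3, Snap25, Stmn2, Rbfox3, Syt1 and Dcx were above the array median, and none was called at its brightest probe set.

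The 14-3-3 proteins form dimers, each subunit of which grips a short motif around a phosphorylated serine or threonine in a partner protein. The class IIa deacetylases, HDAC4 among them, are classic partners. Calcium/calmodulin-dependent kinases, protein kinase D and salt-inducible kinases phosphorylate them, 14-3-3 binding masks the nuclear import signal, and the deacetylase is kept away from the MEF2 transcription factors that it represses in the nucleus. The family was first known as a set of abundant brain proteins, and all members but Sfn, which is mainly a gene of stratified epithelia, are widely transcribed in neurons.

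Expression of the 14-3-3 genes differed little between WT and Hdac4KO brains. Of the 31 probe sets none rose (1.05% of all probe sets rose) and 1, of Ywhaz, fell (1.01% of all probe sets fell), so that the share of members that fell was 3.23%. Without adjustment, 6 probe sets had p under 0.05, 5 lower and 1 higher, which is 19.4% of the members against 18% of all probe sets. The 95% interval of the genotype difference lay within 1.2-fold either way for 29 of the 31 (93.5%), against 84.8% of all probe sets. The 2 others were both of Ywhaz. No probe set of the family separated the genotypes without overlap, as 0.0777% of all probe sets did. The log2 fold changes ran from −0.38 to 0.10 with a median of −0.02, against 0.00 over all probe sets, and 20 were below 0.

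**Figure D1:**
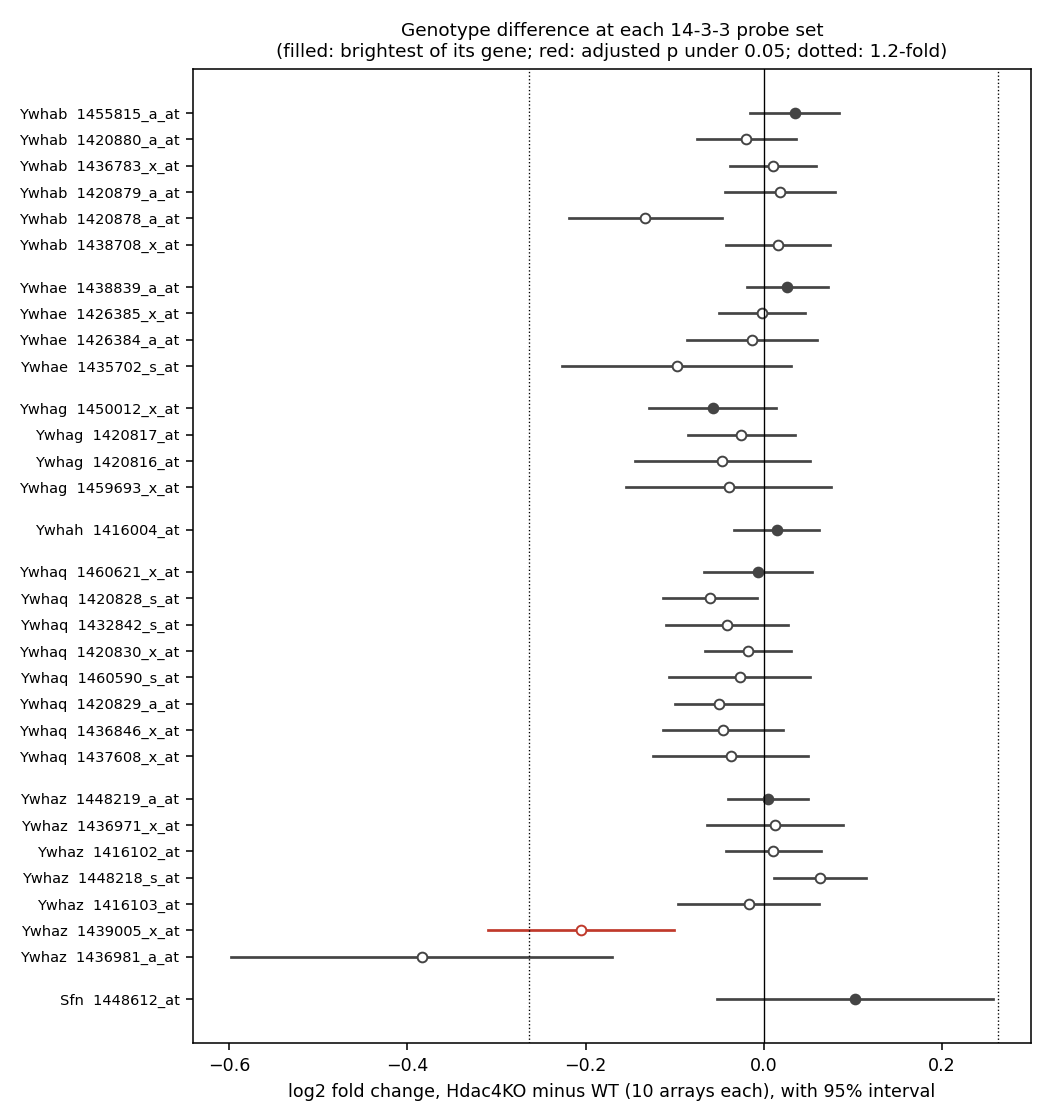
Log2 fold change (Hdac4KO minus WT, x axis, 10 arrays each) of the 31 probe sets of the 14-3-3 genes, with 95% intervals from limma, grouped by gene and ordered from bright to dim. Filled points mark the brightest of each gene and dotted lines mark 1.2-fold; 29 intervals stay between the dotted lines, and the red Ywhaz probe set is the 1 that fell.

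Among the brightest probe sets, 6 of the 7 genes were near the top of the signal range. Ywhab, Ywhae, Ywhag, Ywhah, Ywhaq and Ywhaz had WT means between 13.07 and 13.71, above at least 99.4% of the probe sets on an array, and their SDs were 0.022 to 0.066 in WT and 0.025 to 0.072 in Hdac4KO arrays. With so little spread, the 95% intervals of all 6 lay between −8.50% and 6.06%. The brightest signal on each array was 14.6 to 14.7. Whether signals this close to the upper end are compressed, which would narrow differences, was not tested.

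**Figure D2:**
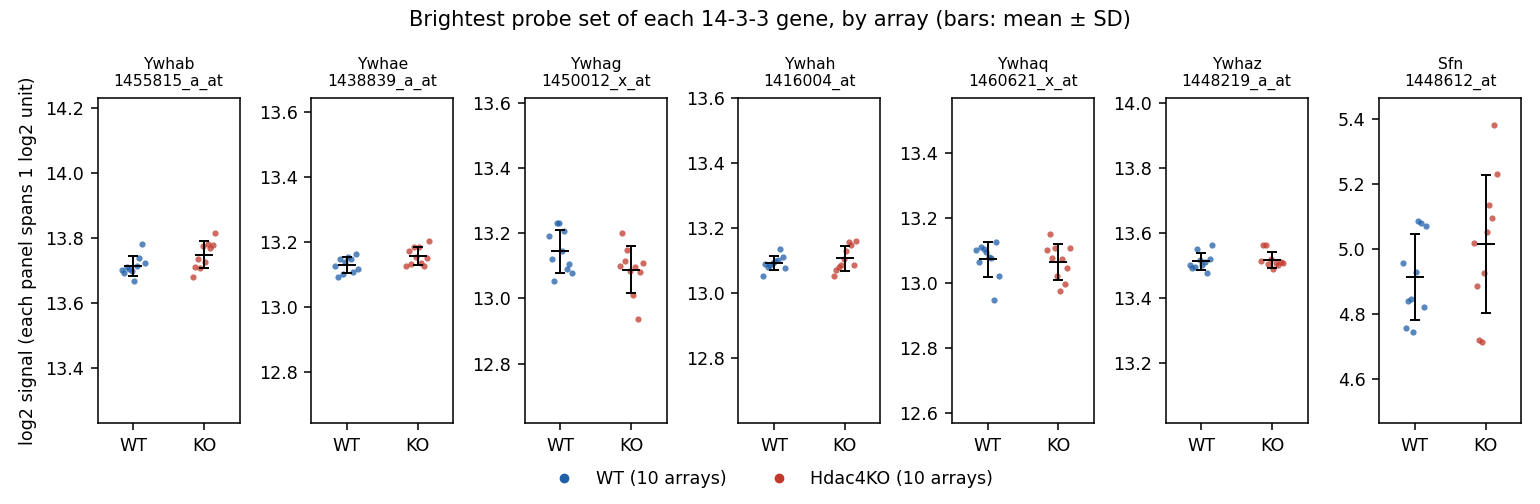
Log2 signal (y axis, each panel spanning 1 log2 unit) of the brightest probe set of each 14-3-3 gene in the 10 WT and 10 Hdac4KO arrays, with mean and SD. The genotypes overlap in all 7 panels; the 6 bright genes lie between about 13 and 14, and Sfn lies near 5 with a wider spread.

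Ywhah encodes the eta isoform and is read by a single probe set, which carries no suffix for shared or cross-matching probes. Its signal ran from 13.05 to 13.14 in WT arrays (median 13.09) and from 13.05 to 13.16 in Hdac4KO arrays (median 13.10). The ranges were almost the same, and 3 of the 10 Hdac4KO arrays lay above the highest WT array. The fold change was 0.01 on the log2 scale (SE 0.02, adjusted p = 0.797 by limma), with a 95% interval from −2.25% to 4.41%.

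The Ywhah promoter is shown because, of the promoters searched, it alone held matches to the motifs of both MEF2, the factor repressed by HDAC4, and CREB, the factor co-activated by 14-3-3 clients of the Crtc family. RefSeq (GRCm38.p6) gave promoters for 5 of the 7 genes (not Ywhab and Ywhaz). The 250 bases before the start site were searched on both strands for the MEF2 consensus, the full cyclic AMP response element TGACGTCA, its part TGACG (which lies inside the full element and is counted there too) and the GC box GGGCGG. Among 32851 mouse promoters, 2.92% held a MEF2 match, 1.55% the full element, 17.8% the TGACG part and 32.7% a GC box. These motifs were chosen after the values were known. In the Ywhah sequence below, the MEF2 match and the full element stand in capitals, 5′ to 3′, and end 100 and 88 bases before the start site. Ywhag, which lies on the same chromosome and held neither, is given beside it.
Ywhah promoter, chr5:33018566-33018815, plus strand: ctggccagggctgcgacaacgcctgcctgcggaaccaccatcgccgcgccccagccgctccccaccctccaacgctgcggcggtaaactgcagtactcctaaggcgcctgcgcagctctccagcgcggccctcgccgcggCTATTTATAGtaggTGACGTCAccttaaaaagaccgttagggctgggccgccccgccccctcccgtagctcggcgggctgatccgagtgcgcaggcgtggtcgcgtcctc
Ywhag promoter, chr5:135934642-135934891, minus strand: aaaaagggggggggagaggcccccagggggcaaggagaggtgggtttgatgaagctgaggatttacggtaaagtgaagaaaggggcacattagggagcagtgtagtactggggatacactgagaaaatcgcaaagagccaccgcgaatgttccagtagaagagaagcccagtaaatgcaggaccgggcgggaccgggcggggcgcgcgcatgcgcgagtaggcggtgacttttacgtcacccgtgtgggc
Ywhag held the TGACG part 11 bases before its start and 2 GC boxes. Ywhah held 2 GC boxes besides, Ywhae held 2, and Ywhaq and Sfn held none of the 4 motifs. A match describes the letters in this window and does not show that a factor binds there.

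Ywhaz, the zeta isoform, gave the only probe set that fell, and its probe sets did not move alike. At 1439005_x_at the WT signals were 8.76 to 9.07 (median 8.85) and the Hdac4KO signals 8.51 to 8.94 (median 8.66). The groups overlapped: 7 of 10 Hdac4KO arrays lay below the lowest WT array, and Hdac4KO replicate 1, at 8.94, lay above the WT mean. The log2 difference was −0.20 with a SE of 0.05 (adjusted p = 0.0380 by limma), or −13.2% with a 95% interval from −19.3% to −6.74%.

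The dimmest Ywhaz probe set, 1436981_a_at, showed a larger difference and did not pass. WT arrays ran from 8.68 to 9.06 (median 8.80) and Hdac4KO arrays from 7.83 to 8.83 (median 8.45). Again 7 of 10 Hdac4KO arrays were below the lowest WT array, and replicates 1, 2 and 3 were not. The SD was 0.13 in WT and 0.33 in Hdac4KO arrays. The difference was −0.38 (SE 0.10, adjusted p = 0.0523 by limma).

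At the other Ywhaz probe sets the genotypes were close. The brightest, 1448219_a_at, ran from 13.48 to 13.56 in WT and from 13.49 to 13.56 in Hdac4KO arrays, a difference of 0.0050 (SE 0.02, adjusted p = 0.939 by limma). The probe sets 1436971_x_at, 1416102_at and 1416103_at differed by 0.01, 0.01 and −0.02. At 1448218_s_at the difference was in the opposite direction: 8 of 10 Hdac4KO arrays lay above the highest WT array, and the log2 fold change was 0.06 (SE 0.02, unadjusted p = 0.0182, adjusted p = 0.173 by limma). The positions of these probe sets in the Ywhaz transcripts were not given in the sources used here.

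**Figure D3:**
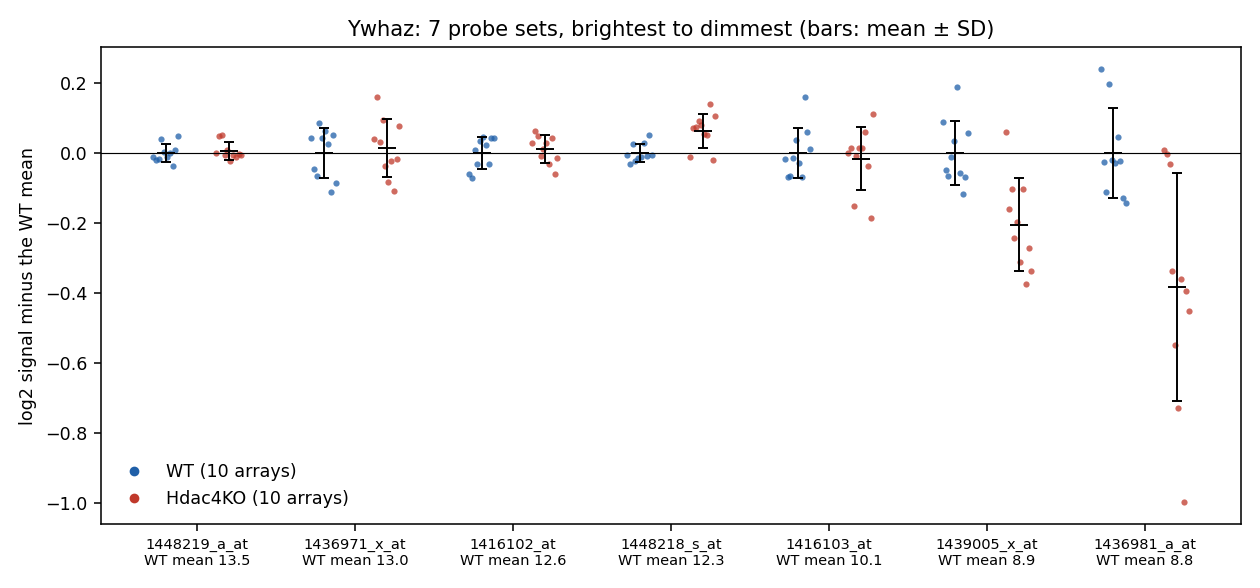
Log2 signal minus the WT mean (y axis) of the 7 Ywhaz probe sets, from brightest to dimmest, in 10 WT and 10 Hdac4KO arrays, with mean and SD. The 5 brighter probe sets stay near 0, whereas the dimmest 2 lie below 0 in 9 of 10 Hdac4KO arrays each.

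The call at 1439005_x_at was close to its threshold. It passed in 15 of 32 alternative settings, with log2 fold changes from −0.23 to −0.18. It was lost without the 2 arrays whose Hdac4 signals lie between the genotypes (adjusted p = 0.0672 by limma) and without the 3 arrays that go against their sex label (adjusted p = 0.0942). Leaving out any 1 of WT replicates 1, 2, 4, 5, 6 and 7 or of Hdac4KO replicates 4, 5, 6, 8, 9 and 10 also ended it. RNA integrity was followed by the difference between 3′ and 5′ probe sets for actin and Gapdh, which averaged 0.19 ± 0.03 in WT and 0.22 ± 0.03 in Hdac4KO arrays (SD, n = 10, two-sided permutation p = 0.0823). With this measure as a covariate the log2 fold change at 1439005_x_at was −0.20 (adjusted p = 0.127 by limma), while over the whole array 23 probe sets rose and 20 fell in place of 474 and 453. Its part in the Ywhaz difference was not tested further.

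Ywhab, the beta isoform, had the brightest probe set of the family. Its 1455815_a_at signals were 13.67 to 13.78 in WT and 13.68 to 13.82 in Hdac4KO arrays, a difference of 0.03 (SE 0.02, adjusted p = 0.476 by limma). The dimmer 1420878_a_at gave 10.14 to 10.50 (median 10.36) in WT and 10.05 to 10.34 (median 10.24) in Hdac4KO arrays. All 10 Hdac4KO arrays lay below the WT mean but 8 lay within the WT range, and the log2 fold change of −0.13 (SE 0.04) did not pass (adjusted p = 0.0893 by limma). The other 4 Ywhab probe sets differed by −0.02 to 0.02.

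Ywhae, the epsilon isoform, whose loss in humans is linked to disturbed neuronal migration, was at 13.09 to 13.16 in WT and 13.12 to 13.20 in Hdac4KO arrays at its brightest probe set 1438839_a_at. The genotypes differed by 0.03 (SE 0.02, adjusted p = 0.561 by limma). Its largest difference, −0.10 at 1435702_s_at, had a SE of 0.06 and an adjusted p of 0.431 by limma. The remaining Ywhae probe sets differed by less than 0.02.

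Ywhag and Ywhaq, the gamma and theta isoforms, were the members whose probe sets were all below 0. For Ywhag the 4 values ran from −0.06 to −0.03 and the smallest adjusted p was 0.395 by limma. They include the dim 1459693_x_at, whose WT mean of 3.23 lay below the array medians. The brightest Ywhag probe set, 1450012_x_at, was at 13.05 to 13.23 (median 13.13) in WT and 12.94 to 13.20 (median 13.10) in Hdac4KO arrays. For Ywhaq the 8 values ran from −0.06 to −0.01 and the smallest adjusted p was 0.209 by limma. At 1420828_s_at and 1420829_a_at all 10 Hdac4KO arrays lay below the WT mean, by 0.06 and 0.05 on average (unadjusted p = 0.0270 and 0.0458). The probe sets of 1 gene read the same RNA of the same brains and are not separate evidence. RefSeq lists 3 pseudogenes named after Ywhaq, and 16 of the 31 probe sets carry the suffix _x_at or _s_at, which marks probes that can match several transcripts or sequences.

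Sfn, the sigma isoform, was dim. Its signals of 4.75 to 5.09 in WT and 4.72 to 5.38 in Hdac4KO arrays were below the array medians of 6.26 to 6.32. The genotypes differed by 0.10 (SE 0.07, adjusted p = 0.507 by limma), and the 95% interval from −3.57% to 19.5% was the widest among the brightest probe sets. Of 6 measured genes of stratified epithelium, 4 were also at or below the array median, namely Krt5, Krt14, Krt15 and Trp63. Krt10 and Krt1 were above it, with WT means of 9.09 and 8.77. None of the 6 was called.

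Differences between probe sets of the same gene were then compared between genotypes, a comparison chosen after the values had been seen. For each gene with several probe sets, the brightest was subtracted from the others in every array. This removes only what the brightest carries in full, and compression of bright signals was not tested. Of 24 such differences in the family, 3 fell in Hdac4KO brains and none rose. Over all 16752 differences of 9010 genes, 3.72% fell and 1.33% rose. Relative to the brightest Ywhaz probe set, 1439005_x_at was lower by 0.21 on the log2 scale (−4.63 ± 0.09 in WT against −4.84 ± 0.12 in Hdac4KO arrays, SD, n = 10, adjusted p = 0.0202 by limma). For 1436981_a_at the change was −0.39 (SE 0.10, adjusted p = 0.0304 by limma). For Ywhab 1420878_a_at it was −0.17 (SE 0.04, adjusted p = 0.0341 by limma). The brightest Ywhaz probe set varied little (SD 0.026 in WT and 0.025 in Hdac4KO arrays). It also differed by only 0.0050 between genotypes, so its subtraction left the Ywhaz differences of −0.20 and −0.38 almost unchanged. The adjustment here ran over 16752 differences, in place of 45037 probe sets. The Ywhaz values were below the WT mean in 9 of 10 Hdac4KO arrays each, and the Ywhab value in 10 of 10. Of the 3, none was called without the 3 arrays against their sex label, 1 without the 2 arrays between the genotypes, and none with the 3′ to 5′ measure as a covariate.

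The signals of the family were also more spread in Hdac4KO than in WT arrays at 24 of the 31 probe sets (77.4%), while 60.5% of all probe sets were more spread in Hdac4KO arrays. Without the 3 arrays against their sex label these values were 23 probe sets (74.2%) and 60.8%, and without the 2 arrays between the genotypes 22 (71.0%) and 58.8%. The 31 probe sets read 7 genes on the same arrays and are not separate evidence, and the difference in shares was not tested.

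No difference between the labelled sexes in the genotype effect was detected, in a fit that used the sex labels of all 20 arrays, those of the 3 arrays included. The genotype difference in males minus that in females ran from −0.17 to 0.18 over the 31 probe sets. None was called (smallest adjusted p = 0.917 by limma, 0% of all probe sets called), and none had an unadjusted p under 0.05, as 5.35% of all probe sets had. Without the 3 arrays the values ran from −0.26 to 0.25, none was called (smallest adjusted p = 0.517 by limma), and 1 of 31 had an unadjusted p under 0.05, as 8.38% of all probe sets had.

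Of 42 relations between members among brains of 1 genotype, 1 passed. Pearson's r between the brightest probe sets of 2 members was computed for all 21 pairs in WT and in Hdac4KO arrays. It ran from −0.63 to 0.49 in WT, where none passed, and 11 of 21 were above 0 in each genotype. In Hdac4KO arrays Ywhag and Ywhaq varied together (r = 0.88, permutation p = 0.00036, adjusted p = 0.0151; rho = 0.92, permutation p = 0.00042, adjusted p = 0.0176; n = 10). Replicate 2 was the highest array for both genes (13.20 and 13.15), and replicates 6 and 8 were the lowest for both. Without the 2 arrays farthest from the Ywhag median r was 0.88. In WT arrays the same pair had r = 0.35 (permutation p = 0.341, adjusted p = 0.795) and rho = 0.16 (permutation p = 0.657), and the difference between genotypes was not tested. Both probe sets carry the suffix _x_at. Among Hdac4KO arrays replicate 2 was also the highest (11.39) and replicate 8 the lowest (10.79) at Ywhae 1435702_s_at. How often pairs of other genes reached such an r in these arrays was not tested. For Ywhab and Ywhah in Hdac4KO arrays r was 0.77 and rho 0.73, with permutation p of 0.0130 and 0.0201 (adjusted p = 0.273 and 0.322), and r fell to 0.53 without 2 arrays.

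**Figure D4:**
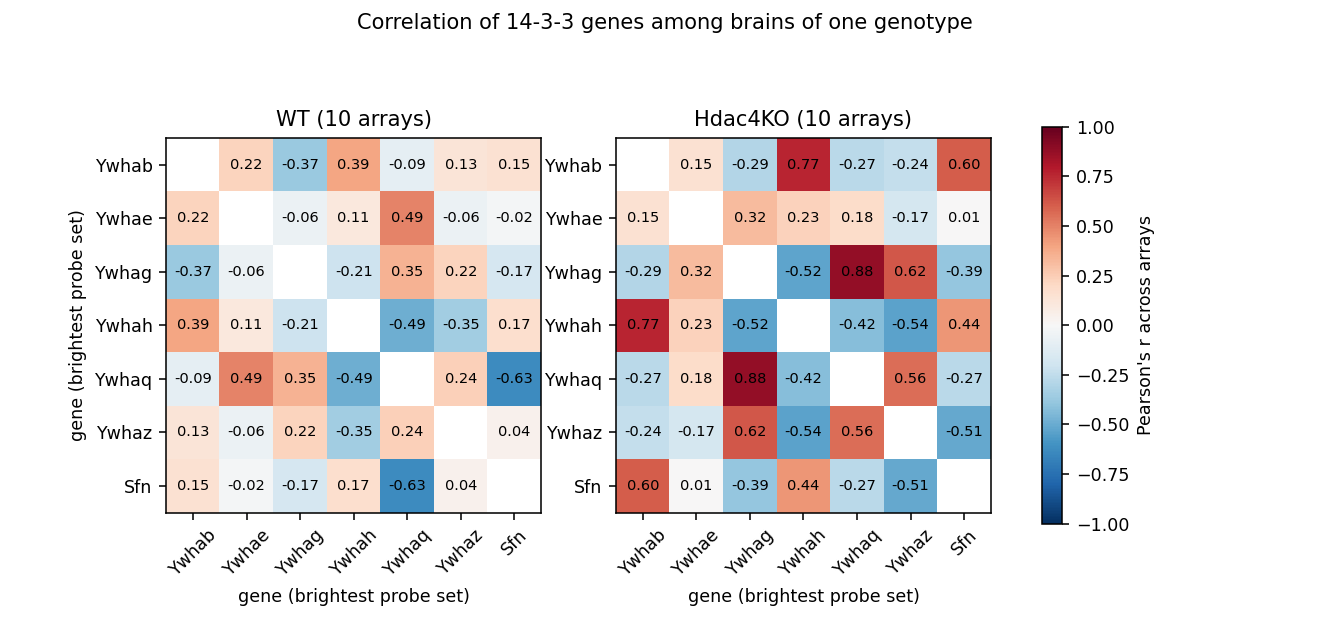
Pearson's r between the brightest probe sets of each pair of 14-3-3 genes across 10 WT arrays (left) and 10 Hdac4KO arrays (right), coloured from −1 (blue) to 1 (red). Ywhag with Ywhaq in Hdac4KO arrays, at 0.88, is the only pair that passed.

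The genes whose brightest probe sets followed Ywhaz 1439005_x_at most closely over the 20 arrays, once each genotype's mean was removed, were Dcaf17 (r = 0.79), Fnbp1l (r = 0.74) and Polr3f (r = 0.73), out of 18192 other genes. They were picked as the highest of many, so these r values are a description. Their log2 fold changes between genotypes were −0.13, 0.02 and −0.14, and none passed (adjusted p = 0.0604, 0.824 and 0.188 by limma).

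The proteins that 14-3-3 binds were represented by 45 genes, of which 42 were measured. When each gene was read by its brightest probe set, 6 rose and none fell, against 1.45% and 0.517% of all genes, and 33 of the 42 log2 fold changes were above 0. Their median was 0.07, against 0.01 over all genes. Of the 42, 38 were above the array median. When dim probe sets were left out, 614 of the 11579 genes kept rose (5.3%), in place of 263 of 18193. That setting changes the genes counted and also adjusts over fewer probe sets. The part of brightness in the client counts was not tested. When a gene was counted by any of its probe sets, 8 clients rose and 2 fell, where 2.12% of all genes rose and 2% fell. Ksr1, a scaffold of the Raf, MEK and ERK kinases, rose from 7.96 ± 0.06 to 8.15 ± 0.09 (SD, n = 10), and 9 of 10 Hdac4KO arrays lay above the highest WT array (log2 fold change 0.19, adjusted p = 0.0162 by limma). Foxo3, a forkhead factor that 14-3-3 holds in the cytoplasm after phosphorylation by Akt, rose by 0.16 (adjusted p = 0.0181 by limma). Adam22, a synaptic receptor of the LGI1 ligand, rose by 0.15 (adjusted p = 0.0198 by limma), and Crtc3, a CREB co-activator, rose by 0.13 (adjusted p = 0.0198 by limma).

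The others that rose were Prkce, which encodes protein kinase C epsilon, and Crtc2, by 0.14 and 0.21 (adjusted p = 0.0331 and 0.0481 by limma). In all 6 genes every Hdac4KO array was above the WT mean. They were picked by their rise in these same arrays, so this is a description. The same held for Camkk2 and Hdac9, which did not pass. Without the 3 arrays against their sex label 3 clients rose (0.544% of all genes did), and without the 2 arrays between the genotypes 4 rose (0.434%). With the mean of each gene's probe sets 1 client rose and 1 fell. With the 3′ to 5′ measure as a covariate none rose (0.055% of all genes did).

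Of 20 measured kinases that act on, or upstream of, the 14-3-3 sites of class IIa deacetylases, none was called at its brightest probe set, although 12 had an unadjusted p under 0.05, all higher in Hdac4KO brains, where 12.8% of all genes were higher at that level. When a kinase was counted by any of its probe sets, 1 rose (2.12% of all genes did). It was Camk1, at the dimmer 1417604_at (log2 fold change 0.15, adjusted p = 0.0427 by limma). The median log2 fold change of the 20 kinases was 0.09, and all 20 were above the array median, unlike many of all genes. The smallest p belonged to Camk4, the nuclear calcium/calmodulin-dependent kinase, and to Camkk2, which activates it. Camk4 was at 10.38 ± 0.27 in WT and 10.87 ± 0.38 in Hdac4KO arrays and Camkk2 at 10.29 ± 0.08 and 10.44 ± 0.11 (SD, n = 10, adjusted p = 0.0621 for both by limma). Mark1, a microtubule-affinity regulating kinase chosen after its values were seen, did not overlap between genotypes (10.45 ± 0.04 and 10.53 ± 0.04) but had an adjusted p of 0.0769 by limma. The count depended on the setting: 7 of the kinases rose when dim probe sets were left out (5.3% of all genes kept) and 5 with trend and robust variance estimates (2.5% of all genes).

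Among 13 other class IIa deacetylases, nuclear transport factors and subunits of the phosphatase PP2A, 1 rose and none fell, against 1.45% and 0.517% of all genes. The list's median log2 fold change was 0.02, against 0.01 over all genes. The gene that rose was Hdac5, from 9.21 ± 0.06 to 9.38 ± 0.07 (SD, n = 10, log2 fold change 0.17, adjusted p = 0.0179 by limma). It did not pass with the 3′ to 5′ measure as a covariate (adjusted p = 0.0832). Hdac9 and Hdac7, the remaining members of that class, differed by 0.21 and 0.10 and did not pass (adjusted p = 0.0548 and 0.162 by limma). Xpo1, the exportin that carries proteins out of the nucleus, differed by −0.08 (adjusted p = 0.137 by limma). Kpna2, of the same list, differed by −0.16 and did not pass either (adjusted p = 0.0542 by limma).

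**Figure D5:**
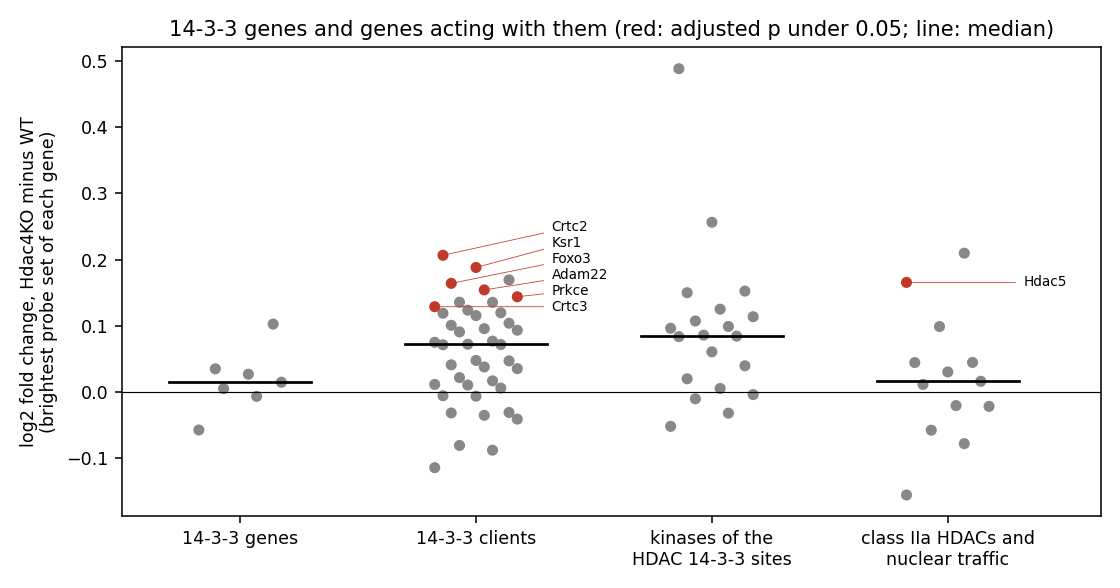
Log2 fold change (Hdac4KO minus WT, y axis) of each 14-3-3 gene, 14-3-3 client, kinase of the deacetylase sites, and class IIa deacetylase or transport factor, read by its brightest probe set; lines are medians and red points have an adjusted p under 0.05. The 7 members of the 14-3-3 family lie between −0.06 and 0.10, and the 6 named clients and Hdac5 lie above 0.

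Among markers of other cells in whole brain, Tmem119 of microglia rose by 0.26 (adjusted p = 0.0179 by limma) and Ttr of the choroid plexus fell by 0.14 on the log2 scale (adjusted p = 0.0420 by limma). By the brightest probe set these were the only markers called, 1 of 5 microglial and 1 of 4 choroid plexus genes, where 1.45% of all genes rose and 0.517% fell. The mean log2 signal of the 5 microglial markers was 7.82 to 8.13 in WT and 7.99 to 8.33 in Hdac4KO arrays. For the choroid plexus it was 8.26 to 8.73 and 8.22 to 8.51. In whole tissue, fewer cells of a type and less RNA per cell cannot be told apart, and the part of these markers in the values above was not tested.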

How the data were processed

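Total RNA (200 ng) was labelled by the authors with the GeneChip 3′ IVT Express kit and hybridized to Affymetrix Mouse Genome arrays, and chips were excluded by their normalized unscaled standard error. The deposited values are log2 signals with 1 value for each probe set on each array, and they were used as they stand. How they were summarised and normalized was not stated in the sources used here. Of 45101 probe sets, 64 controls were left out. By the platform annotation, 34945 probe sets carry 1 symbol, 932 carry several and 9160 none.

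Genotypes were compared over all 45037 probe sets in limma 3.58.1 (lmFit and eBayes, R 4.3.3), without covariates and with Benjamini-Hochberg adjustment. The methods name a 2-tailed t-test, which was run as an alternative. The interaction with sex came from a fit of 4 groups. Pairs were tested with 100000 permutations within a genotype and adjusted over 42 relations. Differences from the brightest probe set were fitted over all 16752 differences. This fit replaced a permutation test adjusted over the members' differences alone, which had been run first and called more of them. Scripts were tested on simulated data. The number of arrays limits the precision.

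The members, the lists of clients, kinases, transport genes and cell type markers, the rule for naming genes and the alternatives were chosen with earlier results of these data known. The rule names all members and Hdac4, up to 4 called genes of each list by p or else the 2 with the smallest p, and 3 genes most like the member probe set with the smallest p. Prkce, Crtc2, Camk1, Mark1, Hdac7, Hdac9, Xpo1, Kpna2 and the marker genes were named after their values were seen. The comparison within genes, its alternatives, the promoter motifs, and the values of Hdac4 and of the SDs without doubted arrays were also chosen then. Each alternative changed 1 choice. They were the t-test, Welch's test, a covariate (sex, or the 3′ to 5′ measure), a replicate block, leaving out dim probe sets, quantile normalization, centring on medians, array weights, eBayes with trend and robust, the mean of a gene's probe sets, and leaving out arrays.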

Additional observations from a re-analysis of the deposited data

Results flagged for a closer look

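At the Ywhae probe set 1426385_x_at the highest Hdac4KO array, replicate 10, had a log2 signal of 13.1 and stood apart from the other Hdac4KO arrays, whose highest value was 13.0. The gap was 0.565 of the range of the 10 arrays, above Dixon's critical value of 0.466. It was the only such value among 62 groups of 10 arrays (31 probe sets in 2 genotypes), and chance alone gives about 5% of groups. The WT arrays reached 13.1 at this probe set too.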

How the results depend on the processing

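Over 989 values of member probe sets under 32 alternatives (20 of them leaving out 1 array) none changed direction while called, 962 kept their side of the threshold, 17 lost the call and 10 gained it. The count of 14-3-3 probe sets that fell (1) was 0 with Welch's test, with the 3′ to 5′ covariate, without the 2 arrays between the genotypes and without the 3 arrays against their sex label. It was 3 with dim probe sets left out, 2 with median centring and 2 with array weights, and 0 to 2 with single arrays left out. Over all 45037 probe sets 453 fell before these changes. The number was 267 with Welch's test, 20 with the covariate, 170 without the 2 arrays and 241 without the 3. It was 678 of 22603 with dim probe sets left out, 504 with median centring and 712 with array weights. By the brightest probe set 1.45% of all genes rose before these changes. The share was 2% with the t-test, 1.46% with Welch's test, 5.3% with dim probe sets left out and 2.5% with trend and robust eBayes. It was 2.36% with array weights, 0.055% with the 3′ to 5′ covariate and 0.544% without the 3 arrays. With single arrays left out it was 0.555% to 3.03%. For clients that rose (6) the count was 0 with the 3′ to 5′ covariate, 3 without the 3 arrays against their label and 1 with the mean of each gene's probe sets, where 1 fell. For kinases that rose (0) it was 2 with the t-test, 1 with Welch's test, 7 with dim probe sets left out, 5 with trend and robust eBayes, 3 with array weights, 2 with the mean of probe sets and 0 to 2 with single arrays left out. For class IIa deacetylases and transport genes that rose (1) it was 0 with the 3′ to 5′ covariate, 2 with dim probe sets left out, 2 with trend and robust eBayes and 1 to 2 with single arrays left out. Of the same list 1 fell (0 otherwise) with dim probe sets left out, quantile normalization, trend and robust eBayes, array weights or the mean of probe sets, and 0 to 1 with single arrays left out. Differences within genes that fell (3) numbered 0 with the 3′ to 5′ covariate, 1 without the 2 arrays, 0 without the 3 arrays, and 1 to 3 with single arrays left out, 1 without WT replicate 1, WT replicate 4 or Hdac4KO replicate 5. Pairs that passed in Hdac4KO arrays (1) were 2 with median centring and 2 with the mean of probe sets. The causes were not tested.

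Replicate numbers are shared by the genotypes. Same-numbered arrays had correlations of −0.15 to 0.16, 1 of 10 above 0.1, and 1 of 10 WT arrays was matched best by its own number. These values gave no sign of pairing, and whether same-numbered arrays shared a litter or a batch was not tested. With the replicate number as a block 1 member probe set fell, Ywhaz 1436981_a_at (adjusted p = 0.0469 by limma) in place of 1439005_x_at (adjusted p = 0.0511). With it 1 kinase rose, as 0.89% of all genes did. Over all probe sets 308 rose and 640 fell with the block, in place of 474 and 453.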

Other observations

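Some dimmer probe sets of 14-3-3 clients, picked after their values were seen, were called where the brightest of their gene was not. Cdkn1b, the p27 inhibitor of cyclin-dependent kinases, fell by 0.48 on the log2 scale at 1419497_at (adjusted p = 0.0152 by limma), while its brightest probe set differed by −0.08 (adjusted p = 0.255). Braf, a kinase that 14-3-3 dimers hold inactive, fell by 0.37 at 1425693_at and rose by 0.19 at 1458641_at (adjusted p = 0.0162 and 0.0441 by limma), while its brightest probe set differed by 0.07 (adjusted p = 0.342).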
